A study of Mus musculus with 8 samples.

Results

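The regions described here are the widest stretches of open chromatin in leukemic granulocyte-macrophage progenitors (L-GMPs) of a mouse model of acute myeloid leukemia. In each library's peak list, peaks on the 19 autosomes and X of 2000 bp or more (end minus start) were taken, and those sharing at least 1 bp were merged over the 8 lists. This gave 332 wide regions among 138385 regions in the union of all peaks, or 0.24%. The regions were chosen by measured peak width, so widths below are a description and carry no test. L-GMPs, negative for lineage markers and Sca-1 and positive for c-Kit, CD34 and CD16/32, were sorted from bone marrow of mice with leukemia driven by MLL-AF9, a fusion oncogene that every group carried, and profiled by ATAC-seq. The 3 control libraries (FL) were Dekfl/fl in FL 1 and FL 2 and Dek+/+ in FL 3. The 3 Dek knockout libraries (KO) carried floxed Dek with MX1-Cre in KO 1 and KO 2 and with Tie2-Cre in KO 3. The 2 libraries named 4S-A carried DEK in which phosphorylatable serines were replaced by alanine (Dek-Ser306A/Ser308A/Ser311A/Ser312A). FL 1, FL 2, KO 1 and KO 2 are called the Mx1-Cre set below, and the other 4 libraries the Tie2-Cre set. Mx1-Cre is induced through interferon signalling and Tie2-Cre acts in endothelial and blood lineages, so neither is restricted to leukemic cells. The labels give neither the animals' age nor whether libraries of a group came from separate animals, and p-values then measure only the spread between these libraries.

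ATAC-seq marks DNA that a transposase can reach, and a peak is a stretch where insertions pile up above the local background. Most open sites are as short as a nucleosome-free gap at a promoter or an enhancer. Wide peaks are known from CpG island promoters, divergent promoters, clusters of short genes and heavily transcribed genes. DEK is a chromatin protein that binds DNA and histones, and PBX3 is a homeodomain partner of HOX proteins in this leukemia. Surface and lineage genes matched the sort in part. Kit, Cd34, Fcgr3 and Fcgr2b, which encode the sorted markers, held peaks in all 8 lists, as did the granulocyte-lineage genes Mpo and Elane. Ly6a (Sca-1), Cd8a and Hba-a1 held none. Cd79a, a B cell gene, and Pecam1, an endothelial gene, also held peaks in all 8. Peaks lay at Dek in all 8 lists, with widest peaks of 824 to 1910 bp, which does not report on the deletion.

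The upstream sequence of 3 genes with a start inside a wide region and of 2 lineage genes without one is shown to make visible the CpG density described further on. Each is the 250 bases before a gene start in RefSeq (GRCm38.p6, the assembly also called mm10), read 5′ to 3′ on the gene's strand, with CpG dinucleotides in capitals. The genes were picked after their values were seen. Cdk6, a cell cycle kinase and target of MLL fusions, lies at chr5:3343643-3343892 on the plus strand and holds 22 CpGs. Hnrnpa2b1, an RNA-binding protein gene that shares its promoter region with Cbx3, lies at chr6:51469895-51470144 on the minus strand and holds 29. Setd7, a lysine methyltransferase gene, lies at chr3:51560824-51561073 on the minus strand and holds 17. Elane (neutrophil elastase), at chr10:79886062-79886311 on the plus strand, holds 3, and Mpo (myeloperoxidase), at chr11:87793534-87793783 on the plus strand, holds 2.
Cdk6: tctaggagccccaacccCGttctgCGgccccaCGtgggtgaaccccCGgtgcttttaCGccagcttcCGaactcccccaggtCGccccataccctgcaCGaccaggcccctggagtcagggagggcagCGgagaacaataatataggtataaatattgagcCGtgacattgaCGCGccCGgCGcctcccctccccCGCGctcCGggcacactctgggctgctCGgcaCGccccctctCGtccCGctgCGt
Hnrnpa2b1: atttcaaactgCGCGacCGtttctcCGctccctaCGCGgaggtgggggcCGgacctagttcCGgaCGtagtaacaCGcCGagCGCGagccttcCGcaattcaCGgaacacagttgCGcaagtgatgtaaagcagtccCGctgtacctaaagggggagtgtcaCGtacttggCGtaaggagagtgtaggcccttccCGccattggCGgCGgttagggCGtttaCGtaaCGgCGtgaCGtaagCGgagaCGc
Setd7: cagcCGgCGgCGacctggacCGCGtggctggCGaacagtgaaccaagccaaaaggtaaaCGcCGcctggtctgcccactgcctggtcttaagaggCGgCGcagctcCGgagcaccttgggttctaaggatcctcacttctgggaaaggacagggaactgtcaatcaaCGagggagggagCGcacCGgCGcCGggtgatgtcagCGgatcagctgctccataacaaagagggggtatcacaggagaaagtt
Elane: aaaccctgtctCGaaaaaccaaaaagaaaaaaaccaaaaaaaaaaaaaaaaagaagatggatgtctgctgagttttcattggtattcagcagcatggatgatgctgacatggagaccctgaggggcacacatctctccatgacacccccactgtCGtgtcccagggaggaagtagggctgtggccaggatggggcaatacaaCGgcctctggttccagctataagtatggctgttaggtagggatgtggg
Mpo: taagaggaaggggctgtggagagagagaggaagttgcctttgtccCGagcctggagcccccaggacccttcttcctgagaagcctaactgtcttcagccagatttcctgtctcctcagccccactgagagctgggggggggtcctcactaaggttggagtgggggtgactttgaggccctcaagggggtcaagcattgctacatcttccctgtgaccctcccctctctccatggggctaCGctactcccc
The widest Elane peak measured 218 to 333 bp over the 8 lists and the widest Mpo peak 424 to 945 bp, against 3442 to 3541 bp for Cdk6 in the Tie2-Cre set.

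Wide peaks were almost absent from the Mx1-Cre set. FL 1 and FL 2 held 2 each, KO 1 held 4 and KO 2 held 9. FL 3 held 176, KO 3 held 213, 4S-A 1 held 164 and 4S-A 2 held 127. The ranges of the sets did not overlap, and the genotypes inside each set lay closer to each other than to their counterparts in the other set. Wide peaks made up 0.00364% to 0.0122% of each Mx1-Cre list and 0.134% to 0.229% of each Tie2-Cre list. The whole width distribution moved with the set. The median width of all peaks was 320 bp in FL 1, 318 in FL 2, 330 in KO 1 and 340 in KO 2. It was 436 bp in FL 3, 398 in KO 3, 401 in 4S-A 1 and 405 in 4S-A 2. Lists were also longer in the Tie2-Cre set, with 91586 to 104605 peaks against 51510 to 74026. The effects of set and of list length on width cannot be told apart. With each list reduced to its 51510 peaks of lowest q, the counts of wide peaks were 2, 2, 176, 4, 9, 213, 163 and 127 in the order FL 1 to FL 3, KO 1 to KO 3, 4S-A 1 and 4S-A 2. This cut drops weak peaks and cannot shorten a peak, and wide peaks had median strength percentiles of 74.4 to 88.1. Nearly all were bound to remain, so the cut cannot part set from list length.

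**Figure D1:**
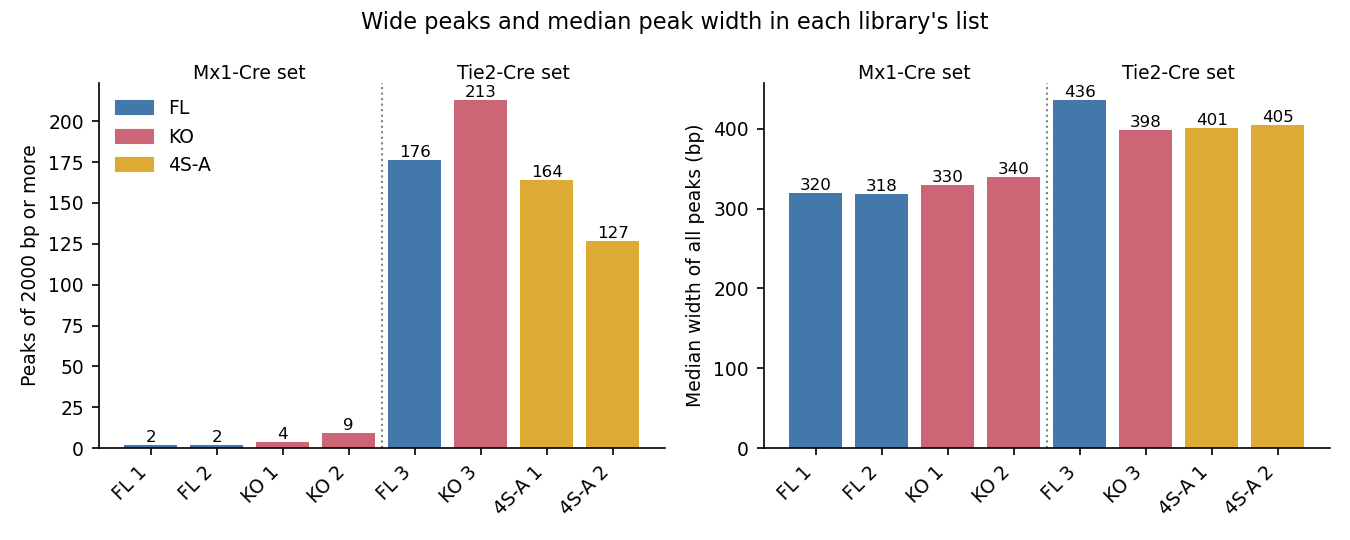
Number of peaks of 2000 bp or more (left) and median width of all peaks in bp (right) in each of the 8 libraries, coloured by group, with the dotted line parting the Mx1-Cre set from the Tie2-Cre set. Counts of wide peaks ran from 2 to 9 in the Mx1-Cre set and from 127 to 213 in the Tie2-Cre set.

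The threshold cuts through a continuous tail. In FL 3, 36 peaks lay within the 50 bp above the threshold and 50 within the 50 bp below it. KO 3 had 44 and 49 there, 4S-A 1 had 25 and 50, and 4S-A 2 had 27 and 43. Of the 332 regions, 320 were wide only in Tie2-Cre lists, 12 in at least 1 Mx1-Cre list and 4 in a Mx1-Cre list alone. Regions wide in exactly 1 list numbered 149, in exactly 2 lists 73, in exactly 3 lists 50 and in exactly 4 lists 53. Between Tie2-Cre libraries, 116 regions were wide in both FL 3 and KO 3, which is 65.9% of those of FL 3 and 54.5% of those of KO 3. The 4S-A pair shared 91, or 55.5% of those of 4S-A 1 and 71.7% of those of 4S-A 2.

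The regions were open in the Mx1-Cre set too, as several shorter peaks. Over the 320 regions wide only in Tie2-Cre lists, the median width of the widest peak was 678.5 bp in FL 1, 687.5 in FL 2, 748 in KO 1 and 842.5 in KO 2. No Mx1-Cre list lacked a peak in more than 3 of these regions. These libraries held 2 or more separate peaks in 70.0% to 80.9% of the regions, and their peaks covered a median of 48.7% to 60.7% of the region. In the Tie2-Cre lists the medians of the widest peak were 1837 to 2051.5 bp, covering 91.3% to 97.9%. Inside the Mx1-Cre set both KO libraries lay above both FL libraries. The same order held over 32997 regions with a peak in all 8 lists and none wide, where the median widest peak was 381 bp in FL 1, 392 in FL 2, 415 in KO 1 and 488 in KO 2.

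**Figure D2:**
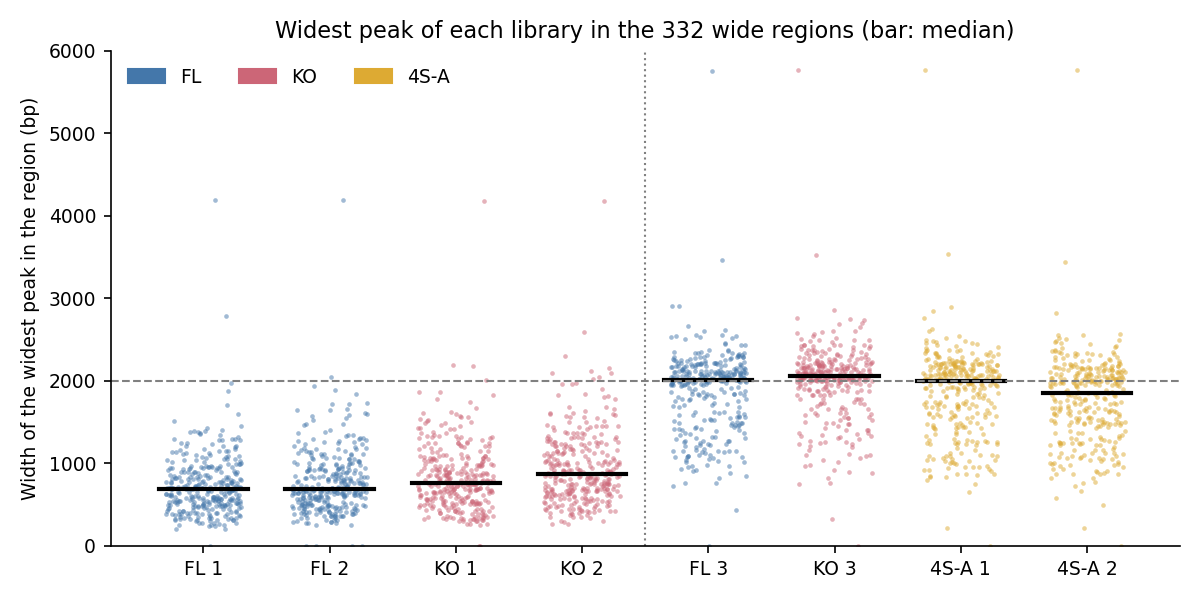
Width in bp of the widest peak that each library held in each of the 332 wide regions (points, spread sideways at random), with the median as a bar and the 2000 bp threshold as a dashed line. Medians lay between 689 and 867.5 bp in the Mx1-Cre set and between 1848.5 and 2052 bp in the Tie2-Cre set.

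Only 1 region (0.301% of the 332) was wide in all 8 lists, and it was a ribosomal RNA repeat copy. It spans chr17:39843033-39848801 (mm10), over the 18S ribosomal RNA pseudogene Rn18s-rs5 and the long noncoding RNA gene AY036118, away from any protein-coding gene. Its widest peak measured 4186 bp in FL 1, 4192 in FL 2, 4177 in KO 1 and 4181 in KO 2. In the Tie2-Cre set it measured 5760 bp in FL 3, 5765 in KO 3, 5766 in 4S-A 1 and 5763 in 4S-A 2, as a single peak where the Mx1-Cre lists held 2. The fold enrichment at its summit, a ratio to that library's local background as deposited, was 1.91 to 2.16, below the list medians of 5.53 to 6.68. Summits lay far apart, with a median distance of 966.5 bp between libraries of the same set and 800.5 bp between sets. Ribosomal DNA exists in many near-identical copies, so reads here cannot be assigned to this copy with certainty.

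The next widest regions lay at Nr3c1 and Cdk6. Nr3c1, the glucocorticoid receptor gene, measured 1966 bp in FL 1, 1841 in FL 2, 2011 in KO 1, 2596 in KO 2, 2618 in FL 3, 2859 in KO 3, 2848 in 4S-A 1 and 2822 in 4S-A 2. It was wide in 6 lists and came close to the threshold in FL 1 and FL 2. Cdk6, at chr5:3341151-3344738, had the second widest single peak in the series after the repeat, 3462 bp in FL 3, 3525 in KO 3, 3541 in 4S-A 1 and 3442 in 4S-A 2. In the Mx1-Cre set the same stretch held 3 or 4 peaks, the widest of 1074 bp in FL 1, 1056 in FL 2, 1030 in KO 1 and 1301 in KO 2. Its strength was ordinary, at percentiles of 58.7 to 63.9 of −log10 q inside each list. In all, 59 regions were wide in all 4 Tie2-Cre lists. They included Crlf2 (a cytokine receptor), Alyref2 (RNA export), the shared promoter of Hnrnpa2b1 and Cbx3 (heterochromatin protein HP1 gamma), Usp9x (a deubiquitinase), Sp3 and Nfe2l2 (transcription factors) and the methyltransferase genes Kmt2e, Nsd1 and Setd7. In these regions the median distance between summits was 7 to 14 bp for each of the 6 pairs of Tie2-Cre libraries. Summits lay within 100 bp of each other in 72.9% to 83.1% of the 59 regions and over 500 bp apart in 5 to 9 of them.

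Regions wide in 1 genotype alone rested mostly on 1 library each. Regions wide only in FL numbered 50 (15.1% of the wide regions), of which 49 were wide in FL 3 alone and 1 in FL 1 alone. Those wide only in KO numbered 51 (15.4%), 48 in KO 3 alone and 3 in KO 2 alone. Those wide only in 4S-A numbered 55 (16.6%), 32 in 4S-A 1 alone, 16 in 4S-A 2 alone and 7 in both. No region was wide in all 3 FL and no other library, or in all 3 KO and no other library. For FL this was fixed by the 2 wide peaks of FL 1, the ribosomal repeat and the region wide in FL 1 alone. KO 1 held only 4 wide peaks, which left little room for such a region in KO. How far the rest of the Tie2-Cre set lay behind varied. In the regions wide in FL 3 alone the median width was 2111 bp there and 1472 to 1605 bp in the other Tie2-Cre lists. In those wide in KO 3 alone it was 2111 bp there and 1457.5 to 1523.5 bp in the others. At least 1 Tie2-Cre library of another genotype reached 1800 bp in 19 of the 50 FL, 19 of the 51 KO and 28 of the 55 4S-A regions. All Tie2-Cre libraries of other genotypes stayed under 1000 bp in 1, 6 and 1 of them. The 6 include the Fos and Jun regions, which were wide in KO 2 alone. There KO 3 itself held no peak at Fos and 325 bp at Jun.

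Among the regions wide only in FL 3, the Fermt3 and Stip1 region (kindlin-3 of blood cells and an HSP90 co-chaperone) stood out at 2900 bp, against 1255 in KO 3, 1155 in 4S-A 1 and 1120 in 4S-A 2. It measured 566 to 1034 bp in the Mx1-Cre set. The Nek8 and Tlcd1 region measured 2601 bp in FL 3 and 1474 to 1792 bp in the other Tie2-Cre lists. Cep95 and Ddx5 (an RNA helicase) crossed the threshold by less than 50 bp, at 2049 bp against 1994 in KO 3. Fli1, a blood transcription factor, measured 2201 bp in FL 3, 1009 in KO 3, 1021 in 4S-A 1 and 1091 in 4S-A 2. Socs1, an inhibitor of cytokine signalling, reached exactly 2000 bp in FL 3 and 1599 to 1620 bp in the other 3.

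Among the regions wide only in KO 3, Ing2, a reader of methylated histone H3, measured 2764 bp, against 1774 in FL 3, 1698 in 4S-A 1 and 1618 in 4S-A 2. The region of Fbxl14 and Wnt5b measured 2510 bp there, against 1965, 1738 and 1951 bp. Eif5a, a translation factor, measured 2428 bp against 1838, 1680 and 1526, and Nadk, which makes NADP, measured 2436 bp against 1219, 1004 and 1253. Cebpb, a myeloid transcription factor, measured 2028 bp in KO 3, 1821 in 4S-A 1, 1822 in 4S-A 2 and 968 in FL 3. In the Mx1-Cre set Cebpb measured 671 bp in KO 1 and 735 in KO 2, below the 777 in FL 1 and 1115 in FL 2.

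The 7 regions wide in both 4S-A libraries and nowhere else were at H2ac6 and H2bc4, Abhd16b and Tpd52l2, Pecam1, Nisch and Tnnc1, Orai2, Hes6 and the noncoding Gm36883. The histone genes H2ac6 and H2bc4 measured 2244 bp in 4S-A 1 and 2555 in 4S-A 2, against 1483 in FL 3 and 1355 in KO 3. Pecam1 (CD31) measured 2064 and 2021 bp, against 1299 and 1204, and Gm36883 measured 2152 and 2087 bp, against 1120 and 822. Orai2, a calcium channel subunit, and Hes6, a transcription factor, differed little from the other libraries, at 1987 to 2022 bp and 1829 to 2002 bp over the Tie2-Cre set. Pbx3 was wide in 4S-A 1 alone. Its gene end at chr2:34371079-34373398 measured 855 bp in FL 1, 901 in FL 2, 818 in KO 1, 758 in KO 2, 1620 in FL 3, 1727 in KO 3, 2320 in 4S-A 1 and 1600 in 4S-A 2. The Pbx3 peaks were among the strongest of every list, at percentiles of 94.3 to 98.8. In 4S-A 1 a single peak spanned what each of the other 7 lists held as 2 peaks.

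The 3 regions wide only in KO 2 lay at the 3′ ends of Fos, Jun and H3f3b. Fos and Jun encode the AP-1 transcription factor and are induced within minutes of stimulation, and H3f3b encodes the replacement histone H3.3. The Fos region, chr12:85477257-85479555, begins at the last bases of the gene on the plus strand and runs on downstream. Its widest peak measured 2299 bp in KO 2, 1828 in KO 1, 553 in FL 1, 455 in FL 2 and 432 in FL 3, and KO 3 and both 4S-A lists held no peak. The Jun region, chr4:95048009-95050123, covers the 3′ end of the gene on the minus strand and measured 2115 bp in KO 2, 1411 in KO 1, 359 in FL 1 and 1123 in FL 2. In the Tie2-Cre set it was listed with no peak in FL 3 and with 212 to 325 bp in the other lists. The H3f3b region, chr11:116019864-116022022 on the minus strand, measured 2159 bp in KO 2, 983 in KO 1, 278 in FL 1 and none in FL 2, and 985 to 1494 bp in the Tie2-Cre set. Enrichment there was low, with folds of 2.76 to 2.96 in KO 2. Of all 332 regions, only 5 held a coding 3′ end without a coding start, these 3 among them, while 196 held a start without a 3′ end.

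The same side of other immediate early genes was examined after this was seen. In the first 3000 bp past the 3′ end, leaving out genes with another coding start there, 17 genes of the immediate early list were measured. Without Fos and Jun, which prompted the count, the other 15 had a mean of 313 bp under peaks in FL 1, 291 in FL 2, 379 in KO 1 and 630 in KO 2. Their means were 405 bp in FL 3, 384 in KO 3, 326 in 4S-A 1 and 305 in 4S-A 2. Their medians were 200, 0, 0 and 326 bp in FL 1, FL 2, KO 1 and KO 2, and 5, 6, 6 and 7 of the 15 had 500 bp or more. With Fos and Jun the means were 338, 345, 496 and 751 bp in the same order. Over all 15973 such genes the means were 37.7, 39.8, 43.9 and 61.5 bp in the Mx1-Cre set, in that order, and 96.0 to 106 bp in the Tie2-Cre set. KO 2 was the highest of the Mx1-Cre set by mean, median and count, while KO 1 was above both controls by mean only. Dusp1, a phosphatase gene, had 1634 bp under peaks in KO 2 and 629 to 813 bp elsewhere. Klf2, a transcription factor gene, had 1879 bp in KO 2 and 682 to 834 bp elsewhere. Fosb had 1505 bp in KO 1 and 1493 in KO 2, against 343 in FL 1 and 639 in FL 2. In the Tie2-Cre set the order was reversed, with 1151 bp in FL 3, 939 in KO 3, 923 in 4S-A 1 and 883 in 4S-A 2. Of the 10 genes with 1500 bp or more in a Mx1-Cre list, 5 were immediate early genes, against 17 of the 15973 measured. The 5 include Fos and the 10 include H3f3b, whose regions prompted this look. Odc1 and Vmp1 also had most in KO 2. Ifnar2 had most in FL 3 (1646 bp, 1508 in KO 2) and Vsig4 in 4S-A 2 (2021 bp, 1956 in KO 2). The pattern in KO 2 was not tested, nor was the part of its longer list (74026 peaks) in it.

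Wide regions lay at gene ends far more often than other open regions. Each region was placed by the summit of its strongest wide peak, by percentile of −log10 q. That summit was within 1 kb of an end of a protein-coding gene in 192 of 332 (57.8%, exact 95% interval 52.3 to 63.2). It was inside a gene in 95 and elsewhere in 45. The share was 11.9% over all union regions and 30.0% over those with a peak in all 8 lists. Among regions with a peak in all 8 lists, none wide, and a mean strength percentile of 78.6 to 92.5 (the middle range of the wide regions), it was 38.0%. The share rose with width and then levelled off. In FL 3 it was 6.90% for peaks of 200 to under 500 bp, 18.1% to under 1000 bp, 50.3% to under 1500 bp, 62.9% to under 2000 bp and 58.5% from 2000 bp. In each of the 4 Tie2-Cre lists the value for wide peaks lay below that for 1500 to under 2000 bp, by less than the width of its own interval. Wide peaks were also not the strongest. In FL 3 their median strength percentile was 87.1 and median fold 6.83, against 90.3 and 8.56 for 1500 to under 2000 bp and 10.2-fold for 1000 to under 1500 bp.

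**Figure D3:**
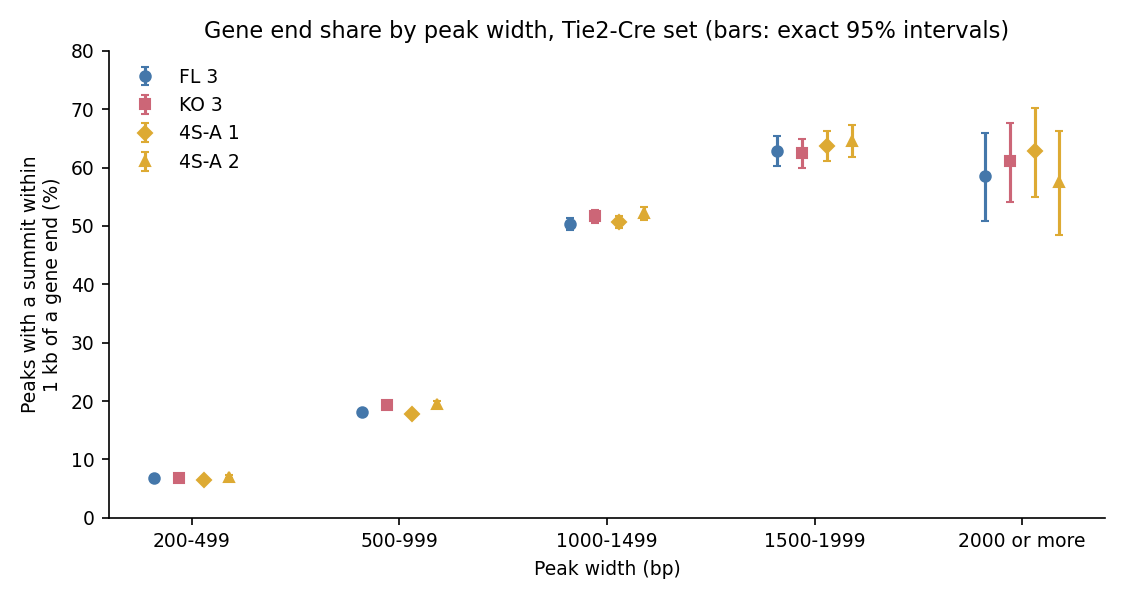
Percent of peaks whose summit lay within 1 kb of a protein-coding gene end, by peak width in bp, in the 4 Tie2-Cre libraries, with exact 95% intervals as bars. The share rose from about 6.53% to 7.05% in the narrowest bin to 62.4% to 64.6% at 1500 to under 2000 bp, and was 57.5% to 62.8% from 2000 bp.

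Gene starts with strand, from a table of 21045 coding promoters that does not cover every gene, placed the regions more closely. A coding start lay inside 206 of the 332 regions (62.0%), and 25 held starts on both strands. Of 180 regions with a single start, the region reached a median of 967.5 bp upstream and 1257.5 bp downstream, and 107 reached further into the gene than away from it. The summit lay a median of 66.5 bp before the start (−66.5 bp). At the start itself, 86.1% to 93.3% of these regions held a peak in the Mx1-Cre lists and 96.7% to 99.4% in the Tie2-Cre lists. At 500 bp into the gene, the shares were 27.8% in FL 1, 32.2% in FL 2, 23.9% in KO 1 and 37.8% in KO 2, against 76.7% to 85.0% in the Tie2-Cre lists. At 1000 bp into the gene, they were 22.8% to 33.3% in the Mx1-Cre lists and at least 57.2% in the Tie2-Cre lists. Since the regions were chosen by width, and mostly by width in Tie2-Cre lists, this describes the choice and is no finding about the sets.

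**Figure D4:**
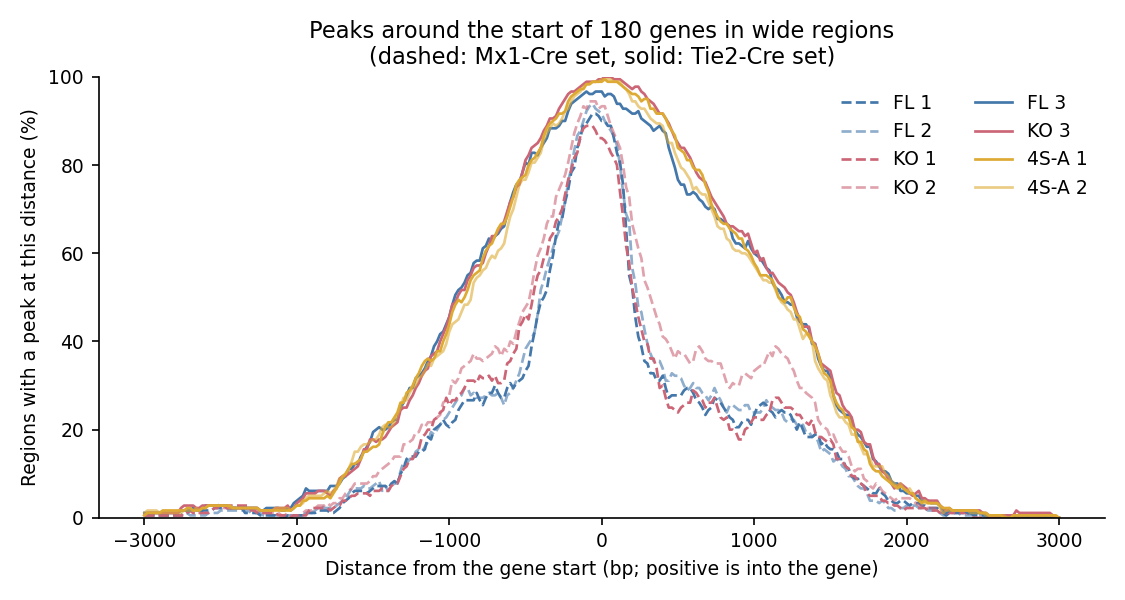
Percent of 180 wide regions with a single coding start that held a peak at each distance from the start in bp (positive into the gene), by library, dashed for the Mx1-Cre set and solid for the Tie2-Cre set. At the start all libraries were between 86.1% and 99.4%, and at 500 bp into the gene the sets parted to at most 37.8% and at least 76.7%.

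The promoters under wide regions were rich in CpG. The ratio of observed to expected CpG over the 300 bases at the start had a median of 0.84 for the 289 starts inside wide regions. It was 0.80 for starts in regions with a peak in all 8 lists and none wide, and 0.57 for all coding promoters. For the 55 starts in regions wide in all 4 Tie2-Cre lists it was 0.92. The printed sequences span this range: the ratio over the 250 bases is 1.32 for Hnrnpa2b1, 0.84 for Cdk6 and 0.76 for Setd7, against 0.22 for Elane and 0.091 for Mpo. Among 7 motifs searched on both strands as exact letters, GGGCGG (the GC box) was in 77.5% of the starts in wide regions, 69.4% of those in non-wide regions of all 8 lists and 46.7% of all. CCAAT was in 31.5%, 38.9% and 38.5%, TTCCGG (an ETS core) in 23.5%, 31.4% and 18.9%, and TATAAA in 7.27%, 5.79% and 12.7%. CACGTG (the E-box) was in 12.5%, 11.0% and 7.91%, TGACGTCA (the CRE) in 3.11%, 3.57% and 2.26%, and the palindromic NRF1 motif in 1.38%, 2.42% and 1.34%. The GC box contains no other of these motifs, and matches are a description of letters only. None of the 5 printed sequences holds GGGCGG on either strand.

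**Figure D5:**
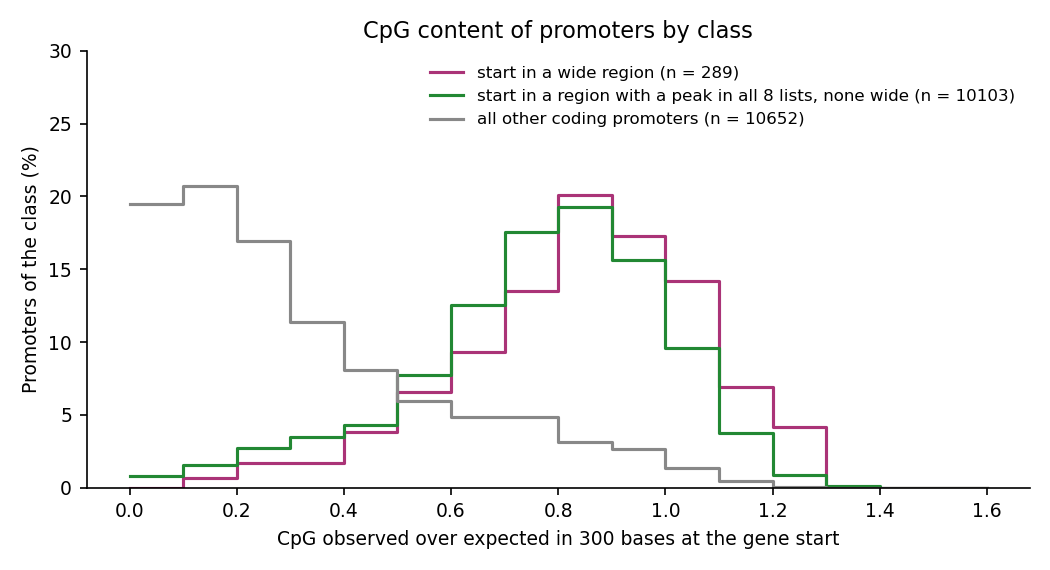
Distribution of the observed over expected CpG ratio in the 300 bases at coding gene starts, in percent of promoters of each class: 289 in wide regions, 10103 in regions open in all 8 lists without a wide peak, and the remaining coding promoters. Starts in wide regions had a median of 0.84, starts in regions open in all 8 lists without a wide peak 0.80, and all coding promoters together 0.57.

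Short genes and gene clusters also lay inside wide regions. In 11 regions a wide region covered at least 80% of the span of 14 coding genes, of which 8 were histone genes (H2bc13, H2ac13, H1f4, H2ac6, H4c1, H3c1, H2ac21 and H2ac20). These were picked out after their values were seen, short genes are covered more easily, and the share over other short genes was not computed. Histone genes are short, lie in clusters and are transcribed in S phase. The H2bc13 and H2ac13 region measured 2160 bp in FL 3 and 2437 in KO 3, against 1705 in 4S-A 1 and 1670 in 4S-A 2. The region of H4c1 and H3c1 measured 2009, 2005, 1713 and 1721 bp in the same order, and 779 to 1561 bp in the Mx1-Cre set. H1f4 measured 2005 and 2010 bp, against 1977 and 1973, and the region of H2ac21 and H2ac20 measured 2378 and 2379 bp, against 2320 and 1978. Both 4S-A libraries were thus below FL 3 and KO 3 in 4 of these 5 regions and above them at H2ac6 and H2bc4. The regions of H2bc13, H1f4 and H4c1 were wide only in FL 3 and KO 3, the pattern of 31 of the 332 wide regions. In these the threshold itself placed both 4S-A libraries below, and at H2ac6 and H2bc4, wide only in 4S-A, it placed them above. How often both 4S-A libraries lay below over all wide regions was not computed. The differences were not tested, since width chose the regions.

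Of 21631 protein-coding genes, 360 (1.66%) lay within 1 kb of a region wide in any list, and 65 (0.3%) of a region wide in all 4 Tie2-Cre lists. Of 20 MLL-AF9 target genes 4 were among the 360. Besides Cdk6 these were Sox4 (2057 bp in KO 3, 2121 in 4S-A 1, 2116 in 4S-A 2 and 1834 in FL 3), Runx2 (2249 bp in 4S-A 1, at most 1559 elsewhere) and Arid3a (2187 bp in KO 3 and 2202 in 4S-A 2, 1618 in FL 3 and 1598 in 4S-A 1). Of 28 Hox, Meis and Pbx genes Pbx3 was (3.57%), and the widest peak at Hoxa9 measured 304 to 1050 bp and at Meis1 616 to 1455 bp. Of 31 blood transcription factors 3 were: Cebpb, Fli1 and Rreb1. Of 25 immediate early genes 5 were: Fos, Jun, Ier5, Btg1 and Btg2. Btg1, an antiproliferative gene, measured 2219 bp in KO 3, 2200 in 4S-A 1, 2207 in 4S-A 2 and 1012 in FL 3, while its relative Btg2 measured 2286 bp in FL 3, 2240 in 4S-A 1, 2286 in 4S-A 2 and 1194 in KO 3. Of 48 chromatin factors and DEK partners 7 were: H3f3b, Kmt2a, Kmt2c, Mllt10, Arid1b, Dnmt3a and Hmga1. Of these 7, Hmga1, an AT-hook protein gene, varied least, from 1866 to 2021 bp over all 8 lists. Kmt2a, the mouse gene of MLL itself, measured 2017 bp in 4S-A 1, 1990 in KO 3, 1683 in FL 3 and 1634 in 4S-A 2.

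Of 50 ribosomal protein genes Rpl7 was near a wide region (2%), against 1.66% of all 21631 protein-coding genes. Of 20 housekeeping genes Gapdh and Ywhaz were (10%). Of 5 matched microRNA host and RNA-processing genes Ago2 was (20%). Of 20 MAPK and JAK-STAT feedback genes Socs1 was (5%), and of 27 cell cycle genes Cdk6 was (3.7%). These shares rest on 1 or 2 genes a list and were not tested. None of the 111 genes in 8 lists of granulocyte, monocyte, stem, erythroid, megakaryocyte, B, T and NK, and mast cell genes was near one. The share over all coding genes was itself only 1.66%. Each of these 8 lists held 0, and the dendritic and endothelial lists, which held 1 each, are outside the pool. Of 12 dendritic cell genes Xcr1 was (8.33%), which lies beside Fyco1 in a shared region. Of 14 endothelial and stromal genes Pecam1 was (7.14%). Myc, a growth regulator, had a widest peak of 702 to 1070 bp.

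KO and FL were compared on 3 measures other than width, by which the regions were chosen. With 3 against 3 libraries no p below 0.1 is possible, so these tests cannot call a difference. The share of wide peaks at gene ends was 0% in FL 1, 0% in FL 2, 58.5% in FL 3, and 0%, 55.6% and 61.0% in KO 1 to KO 3. In FL 1, FL 2, KO 1 and KO 2 it rests on 2, 2, 4 and 9 peaks. KO exceeded FL by 19.4 percentage points (19.5 ± 33.8 in FL and 38.9 ± 33.8 in KO, SD, n = 3 each; exact two-sided permutation p = 0.7). Libraries of the Mx1-Cre set alone gave 27.8 points and those of the Tie2-Cre set 2.51, and 4S-A exceeded FL 3 by 1.62 points. The strength percentile of the ribosomal repeat was 69.9 ± 10.5 in FL and 63.0 ± 7.70 in KO (SD, n = 3 each; exact permutation p = 0.3). Within sets it was −9.61 (Mx1-Cre) and −1.63 (Tie2-Cre). The median strength percentile over all 332 regions was 86.0 in FL 1, 86.5 in FL 2, 87.3 in FL 3. For KO 1 it was 88.3, for KO 2 88.7 and for KO 3 87.7. KO lay above FL without overlap, by 1.64 (exact permutation p = 0.1, the smallest possible). With lists of equal length the difference was −0.023 (exact permutation p = 1). The median percentile of the 32997 non-wide regions of all 8 lists was likewise higher in KO inside the Mx1-Cre set, 66.0 in FL 1, 68.3 in FL 2, 69.1 in KO 1 and 76.6 in KO 2. Adjusted over these 3 tests by Benjamini-Hochberg, the exact permutation p-values were 0.7, 0.45 and 0.3. The third measure, the median over all 332 regions, was not planned beforehand. It was also compared in subsets, outside this adjustment. KO minus FL was 1.77 in regions wide only in Tie2-Cre lists (exact permutation p = 0.1). In those wide only in 4S-A it was 1.55 (exact permutation p = 0.2). In those wide only in FL 3 and only in KO 3 it was 1.71 and 1.87. Width in a compared library chose these last subsets, so their values are a description and carry no test.

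The widest 2% of each list, a threshold relative to the library, was taken in place of a fixed width. It lay at 922 to 1030 bp in the Mx1-Cre set and 1408 to 1469 bp in the Tie2-Cre set. It gave 4374 regions, of which 159 were among the widest in all 8 lists, and 123 of these (77.4%) had a coding gene end inside. Of the 159, 37 were also wide by the 2000 bp rule. The ribosomal repeat, Nr3c1, Cdk6, Crlf2, Alyref2, the Hnrnpa2b1 and Cbx3 promoter, Hmga1 and Usp9x led them by mean width. Near these regions were 186 coding genes (0.86%), among them Fosl2, Kmt2c, Mllt10, H3f3a, Ppia, Eef1a1 and Polr2a from the lists. Regions among the widest 2% only in FL numbered 586, only in KO 647 and only in 4S-A 587.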

How the data were processed

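Chromatin accessibility was measured by ATAC-seq in 8 L-GMP libraries. The submitters' processing notes name mm10, MACS2, Picard, featureCounts, Bowtie2 2.2.9 and Trim Galore 0.4.4. Their order and parameters are not given in the sources used here. The authors deposited a separate peak list for each library. Their deposited score is 10 times the −log10 q. The fold enrichment they deposited is a ratio to that library's own local background. The authors deposited a −log10 q and a −log10 p for every peak. None is scaled between libraries, so strength was the percentile of −log10 q inside a list. The other deposited columns used were start, end and summit. Read depth is unknown, and list length is the depth the lists show.

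Regions were placed on a RefSeq table of 21631 coding genes (GRCm38.p6) that gives neither strand nor exons, and on a RefSeq promoter table with strand. Values were computed with Python 3.11.15, pandas 2.3.3, numpy 2.4.6 and scipy 1.17.1, and the merging and permutation steps were tested on simulated data. Tests were exact two-sided permutations over libraries. Shares carry exact Clopper-Pearson 95% intervals, which cover counting error only. The 22 gene lists, the motifs and the wide regions were chosen with earlier results of these data known. Named genes were those of the rule: Dek, Pbx3, Hoxa9, Meis1, Myc, surface markers, the regions of largest mean width overall and among those wide only in FL, KO or 4S-A, and up to 4 genes per list. Genes named for their 3′ ends or histone clusters, and a few others, were chosen after their values were seen. Replicate numbers shared by FL and KO were checked through deviations from the group means over 33321 regions. These correlated with r = 0.267 for number 1, 0.167 for number 2 and 0.520 for number 3. Number 3 is the only Tie2-Cre library of each group, so its value cannot be told apart from the set. FL 2 with KO 1 (r = 0.240) exceeded FL 2 with KO 2, and FL 1 with KO 2 gave 0.130, so inside the Mx1-Cre set the values follow the set and do not single out the number. A fit with the numbers as pairs was run only as an alternative, beside other widths, equal-length lists, other gene end distances, other merging and leaving out each library. Peaks on Y and unplaced scaffolds were left out.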

Additional observations from a re-analysis of the deposited data

Results flagged for a closer look

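The median width of all peaks moved in opposite directions in the 2 sets. It was higher in both KO libraries than in both FL libraries of the Mx1-Cre set, with a difference of means of 16 bp. In the Tie2-Cre set KO 3 was below FL 3 (−38 bp). The median width of the wide peaks alone moved the other way round, by −1153 bp in the Mx1-Cre set, where it rests on 2 to 9 peaks a library, and by 18.5 bp in the Tie2-Cre set. Neither difference between the sets was tested.

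Outside chromosomes 1 to 19 and X, KO 3 held 1 wide peak and 4S-A 1 held 3, of which 1 was on Y, while the 3 FL lists held 0. The longest peak there in the other lists measured 1844 to 1984 bp, just under the threshold.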

How the results depend on the processing

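Counts of regions follow the width threshold, as construction implies. At 1500 bp there were 2563 wide regions, 11 wide in all 8 lists, 312 only in FL, 258 only in KO and 418 only in 4S-A. At 3000 bp there were 2 wide regions, the ribosomal repeat and Cdk6, and 0 only in FL, 0 only in KO and 0 only in 4S-A. For the widest 2% of each list the counts were 4374, 159, 586, 647 and 587. Joining peaks closer than 200 bp gave 513 wide regions and 100 only in 4S-A. Leaving out each library in turn gave 283 to 332 wide regions, 1 to 81 only in FL, 3 to 82 only in KO and 23 to 104 only in 4S-A. The lows came without FL 3, KO 3 and 4S-A 1. The highs came without KO 3 for FL and 4S-A and without FL 3 for KO. Equal-length lists and merging at 50% overlap kept every count within 1 of its value. For equal-length lists this was nearly fixed in advance, since only the weakest peaks are dropped and widths stay as they are.

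The gene end share, KO minus FL, turned to −0.46 points at 1500 bp and −5.04 points for the widest 2%, and was 0 at 3000 bp. Left-out libraries gave 8.27 to 38.9 points. The strength percentile of regions wide in all 8 lists turned to 0.79 for the widest 2% and to 0.0085 by percentile of fold, and left-out libraries gave −13.0 to −3.55. The median percentile of all wide regions, with alternatives chosen after seeing the data, turned to −0.023 in equal-length lists and to −2.28 by percentile of fold, and left-out libraries gave 1.29 to 1.84. Exact permutation p-values over all alternatives ran from 0.1 to 1. No setting could give a p below 0.1, so these p-values say nothing about stability. With the replicate numbers as a block, the differences were again 19.4, −6.95 and 1.64 (exact sign-flip p = 0.5, 0.25 and 0.25). The smallest p of 3 pairs is 0.25, so no call was possible with the pairing. The summit spacing of the repeat within a set fell to 2.25 bp when peak midpoints replaced summits. What caused these changes was not tested, apart from the number of peaks a threshold admits. Read depth is unknown, and its part in the widths was not tested.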
